A study of Mus musculus with 6 samples.

Results

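Sensors of misplaced DNA were followed in the injured mouse heart: Aim2, which detects DNA in the cytosol, Ifi204, which detects it in the nucleus and cytosol, and Tlr9, which detects it in endosomes. They are the 3 genes with these symbols among the 149 genes of the authors' deposited table. That table holds genes with a false discovery rate (FDR) of at most 0.05 and a fold change of at least 2 between the groups, so the difference between the groups chose these genes and is described below without a test. The TMAO+IR mice drank water with 0.12% trimethylamine N-oxide (TMAO), a gut-derived oxidation product of trimethylamine, from 4 weeks before heart surgery onward. In the IR mice, as in the TMAO+IR mice, a coronary artery (the LAD) was closed for 45 min and reopened for 24 h, which models ischaemia and reperfusion (IR), and no TMAO was given. All mice were male C57BL/6 with the genotype labelled wt, their age is not stated in the labels, and no group without surgery was analysed here. Each group had 3 libraries of poly(A)-selected RNA from the reperfused region. Library sizes, estimated from the ratio of counts to FPKM, were 18370840 to 22442045 fragments. The labels do not tie libraries to animals, so the spread between libraries may be technical. None of the 8 cardiomyocyte markers examined is in the table, so the heart label was not checked against such markers.

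AIM2 is a cytosolic protein that binds double-stranded DNA and assembles an inflammasome with the adaptor ASC and caspase-1, which matures IL-1β and IL-18. The Ifi204 product, p204, belongs to the same interferon-inducible HIN-200 (Ifi200) protein family and can signal through STING towards type I interferon. TLR9 is cleaved and signals in endosomes, where it binds DNA with unmethylated CpG dinucleotides and acts through the adaptor MyD88. Mitochondrial DNA, which is released from dying heart muscle cells, carries such dinucleotides and is known as a ligand of TLR9.

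In the authors' deposited table all 3 sensors were higher in TMAO+IR, as were 122 of its 149 genes, and the other 27 were lower. The p-values and FDR of the deposited table imply that about 12721 genes were tested, of which 1.17% were listed and 0.959% were listed as higher. The listed log2 fold changes, taken from mean FPKM (fragments per kilobase of transcript, scaled to sequencing depth), were 2.32 for Aim2, 1.11 for Tlr9 and 1.06 for Ifi204 in the authors' deposited table, beside a median of 1.17 over all 149 genes. Ifi204 and Tlr9 stood close to the fold limit, with 26 and 42 listed genes showing smaller absolute changes, whereas 142 did so for Aim2. The FDR order was the opposite. Ifi204 had an FDR of 0.00837, Tlr9 of 0.0413 and Aim2 of 0.0487 in the authors' deposited table. Aim2 thus had the highest FDR of the list and stood just inside its limit. The nearest genes inside the same limit were Slc4a1 (FDR 0.0468) and Hpn (0.0462) in the authors' deposited table. Genes just outside were not analysed here.

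**Figure D1:**
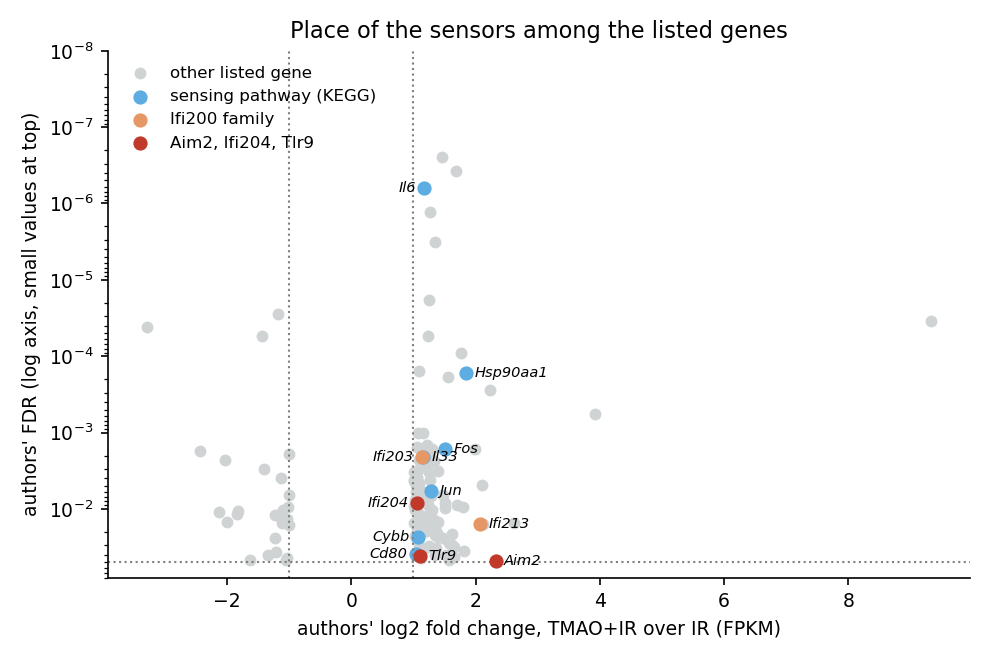
Log2 fold change of mean FPKM (TMAO+IR over IR, horizontal axis) against the FDR (log axis, small values at the top), both from the authors' deposited table, with dotted lines at the listing limits. Aim2 lies at the FDR limit of 0.05 with a log2 fold change of 2.32, and Ifi204 and Tlr9 lie near the fold limit; 3 listed genes with an FDR below 1e-08 are outside the plotted range.

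Ifi204 was the most abundant of the sensors. Its level was 12.1, 10.7 and 7.23 FPKM in TMAO+IR libraries 1 to 3, against 3.91, 5.35 and 5.11 FPKM in IR libraries 1 to 3. The groups did not overlap, as in 97.3% of the listed genes (80.5% with TMAO+IR higher, by depth-scaled counts), and TMAO+IR replicate 3 came closest to IR, at 1.35 times the highest IR level. The mean was 10.01 ± 2.50 FPKM in TMAO+IR and 4.79 ± 0.77 FPKM in IR (SD, n = 3 each). These levels rest on 346 to 530 reads per TMAO+IR library and 186 to 270 per IR library. An edgeR fit to the counts of all 149 genes gave a log2 fold change of 1.06 ± 0.37 (SE). The depth-scaled counts had a coefficient of variation of 25% in TMAO+IR and 16% in IR.

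**Figure D2:**
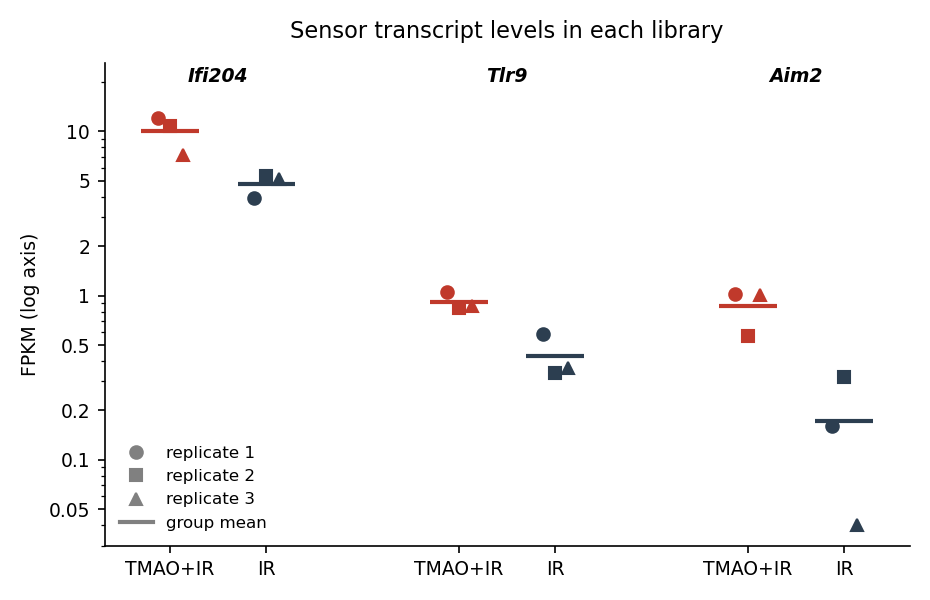
FPKM of Ifi204, Tlr9 and Aim2 in each library (log axis), with TMAO+IR left of IR, a symbol per replicate and a line at the group mean (n = 3 per group). Ifi204 lies between 7.23 and 12.1 FPKM in TMAO+IR and between 3.91 and 5.35 in IR, and Tlr9 and Aim2 do not exceed 1.05 FPKM in any library.

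Ifi204 (ENSMUSG00000073489) is read from the minus strand of chromosome 1 between 173747293 and 173766943 (GRCm38), and its coding transcript (201) has 9 exons and 2296 bases. It shares much of this sequence with neighbouring Ifi200 genes. Of all windows of 50 bases in the transcript, 30.2% occurred unchanged in transcripts of other genes, mainly Ifi211 (23.2%) and Mndal (8.5%). Of all windows of 100 bases, 16.8% did so, mainly in Ifi211 (15.1%), and of all windows of 150 bases 10.8% did so, all in Ifi211. In the longest transcript of Aim2 0.789% of windows of 50 bases were shared and none of 100 bases, and in that of Tlr9 none of either length. Neither the read length nor the counting of reads that match several genes is stated in the labels, so part of the Ifi204 count could belong to Ifi211, Mndal or another relative, or the reverse. The first 240 coding bases, at chr1:173761624-173761863 in Ifi204 and chr1:173907622-173907861 in Ifi211 (both minus strand, GENCODE M21 transcripts), are shown because they are the same but for 1 base, printed in capitals (C200A, counted from the start codon, from Ifi204 to Ifi211).
Ifi204: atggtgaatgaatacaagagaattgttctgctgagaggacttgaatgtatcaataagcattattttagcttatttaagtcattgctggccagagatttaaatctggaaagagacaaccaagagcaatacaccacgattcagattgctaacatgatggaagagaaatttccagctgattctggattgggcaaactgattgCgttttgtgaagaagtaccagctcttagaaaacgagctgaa
Ifi211: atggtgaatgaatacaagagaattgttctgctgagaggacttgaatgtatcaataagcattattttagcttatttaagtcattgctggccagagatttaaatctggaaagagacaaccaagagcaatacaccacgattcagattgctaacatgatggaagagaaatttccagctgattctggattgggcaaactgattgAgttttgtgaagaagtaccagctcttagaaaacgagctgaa
Ifi211 is not among the 149 genes and its level was not analysed here.

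Tlr9 was far less abundant than Ifi204. Its level was 1.05, 0.84 and 0.87 FPKM in TMAO+IR libraries 1 to 3, against 0.58, 0.34 and 0.36 FPKM in IR libraries 1 to 3. The TMAO+IR libraries lay close together and all above the IR libraries, of which replicate 1 was the highest. By depth-scaled counts, 80.5% of the listed genes had all TMAO+IR libraries above all IR libraries. The mean was 0.92 ± 0.11 FPKM in TMAO+IR and 0.43 ± 0.13 FPKM in IR (SD, n = 3 each). The counts behind these levels were 67, 63 and 63 in TMAO+IR and 42, 26 and 28 in IR. The exact Poisson 95% intervals of the lowest TMAO+IR count (48.4 to 80.6) and the highest IR count (30.3 to 56.8) overlapped, and such intervals cover counting error only. The fit to the counts gave a log2 fold change of 1.10 ± 0.33 (SE, edgeR).

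Tlr9 (ENSMUSG00000045322) is a compact gene on the plus strand of chromosome 9 at 106222598 to 106226883, with 1 annotated transcript of 2 exons and 3478 bases, of which 3096 are coding. RefSeq windows of 250 bases before a gene's start were available for Tlr9 and Aim2. The Tlr9 window, chr9:106222348-106222597 (plus strand, GRCm38.p6), is printed because it holds, close to each other, 2 motifs known from immune genes, in capitals.
Tlr9: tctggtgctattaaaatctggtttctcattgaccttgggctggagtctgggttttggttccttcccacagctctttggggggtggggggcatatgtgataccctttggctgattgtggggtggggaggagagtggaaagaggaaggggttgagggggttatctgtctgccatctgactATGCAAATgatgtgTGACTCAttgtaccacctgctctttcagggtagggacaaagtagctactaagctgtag
The first is the octamer ATGCAAAT, bound by POU factors such as Oct-2, at 72 to 65 bases before the start. The second is TGACTCA, a match to the AP-1 motif TGANTCA, at 58 to 52 bases before it. On either strand, the octamer was found in 1.74% and the AP-1 motif in 7.81% of all 32851 RefSeq windows of 300 bases (250 before to 50 after a start). Of the 139 such windows of listed genes, 11 held the octamer and 17 the AP-1 motif. Neither the interferon-stimulated response element (ISRE) searched as GAAANNGAAA nor the STAT site TTCNNNGAA was in the Tlr9 or the Aim2 window. These matches describe letters only, and the motifs were chosen with the sequences in view.

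Aim2 had the highest fold change and the fewest reads of the sensors. Its counts were 27, 25 and 21 in TMAO+IR libraries 1 to 3, against 7, 12 and 2 in IR libraries 1 to 3. Every TMAO+IR library had more Aim2 reads than any IR library, a pattern that 80.5% of the listed genes showed by depth-scaled counts. The exact Poisson 95% intervals of the lowest TMAO+IR count (13 to 32.1) and the highest IR count (6.2 to 21.0) overlapped, however. Summed over libraries there were 73 reads in TMAO+IR and 21 in IR. Per fragment of estimated library size this is a ratio of 3.73, with an exact binomial 95% interval of 2.27 to 6.38 (counting error only). The edgeR fit gave a log2 fold change of 1.88 ± 0.45 (SE). IR replicates 2 and 3, with 12 and 2 reads, moved this value most. It was 2.49 without IR replicate 2 and 1.43 without IR replicate 3.

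The FPKM of Aim2 did not follow its counts. Its level was 1.02, 0.57 and 1.01 FPKM in TMAO+IR libraries 1 to 3, against 0.16, 0.32 and 0.04 FPKM in IR libraries 1 to 3. TMAO+IR replicate 2, with nearly as many reads as replicate 1, thus had the lowest FPKM of its group. The ratio of count to FPKM gives the transcript length behind each value, which was 1441, 2037 and 998 bases in TMAO+IR libraries 1 to 3, against 2115, 1705 and 2228 bases in IR libraries 1 to 3. For Ifi204 and Tlr9 this length differed by at most 1.01-fold between libraries, and for Aim2 by 2.23-fold. Among the 86 listed genes at or above 1 FPKM throughout, the median was 1.06-fold, 22 genes exceeded 1.2-fold and the highest was 2.36-fold. Aim2 has 7 annotated transcripts of 326 to 2839 bases, so reads assigned to a shorter transcript yield a higher FPKM. Whether such assignment lies behind these lengths was not tested. The mean was 0.87 ± 0.26 FPKM in TMAO+IR and 0.17 ± 0.14 FPKM in IR (SD, n = 3 each). This is a ratio of 5.0 in the authors' deposited table, in which these lengths enter, beside 3.73 from the summed reads, which use no length.

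**Figure D3:**
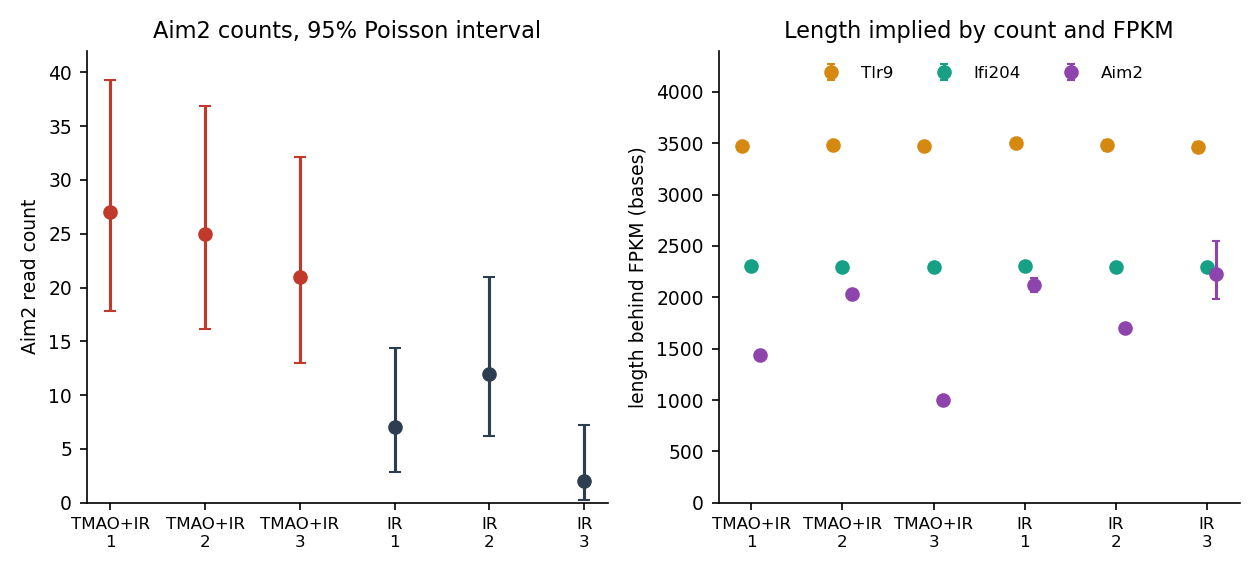
Left, Aim2 read count in each library with its exact Poisson 95% interval (TMAO+IR, then IR). Right, transcript length in bases implied by count and FPKM, with bars for the rounding of FPKM to 2 decimals; Tlr9 and Ifi204 keep the same length in all 6 libraries, while Aim2 varies from 998 to 2228 bases.

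Aim2 (ENSMUSG00000037860) spans chromosome 1 from 173350879 to 173466040 on the plus strand. Its longest transcript (202, 2839 bases) and the transcript 204 (2079 bases) have coding parts of equal length, 1062 bases, but the first starts at 173350879 and the other at 173455354. The upstream part of the gene lies within Cadm3 on the opposite strand, but none of the 3501 exonic bases of Aim2 is exonic in Cadm3. The RefSeq window ends before a start at 173420604, between these GENCODE starts, so it is 1 of several candidate start regions. It covers chr1:173420354-173420603 (plus strand, GRCm38.p6) and is printed with matches to GAGGAANT, a motif of the myeloid and lymphoid factor PU.1, in capitals.
Aim2: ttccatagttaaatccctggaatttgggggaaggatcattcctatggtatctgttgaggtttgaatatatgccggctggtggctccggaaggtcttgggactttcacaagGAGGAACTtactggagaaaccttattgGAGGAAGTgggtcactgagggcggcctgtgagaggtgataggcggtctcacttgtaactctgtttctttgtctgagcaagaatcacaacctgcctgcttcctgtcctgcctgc
The matches lie at 140 to 133 and 113 to 106 bases before the start. Windows of 300 bases with this motif on either strand made up 7.44% of the RefSeq set, and the Tlr9 window also holds 1, on the minus strand after the start. Among listed genes 17 of 139 windows had it. So did 5 of 12 Ifi200 family genes with a window, Aim2, Ifi206, Ifi208, Ifi213 and Ifi214, so the motif is not particular to Aim2.

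In levels per length, Ifi204 stood above the other two in all 6 libraries. The Ifi204 to Tlr9 ratio of FPKM ran from 8.31 to 12.8 in TMAO+IR and from 6.74 to 15.7 in IR, with a median of 12.1 over the 6 libraries. By FPKM, Tlr9 stood above Aim2 in 5 of 6 libraries, with ranges that overlapped. Their ratio ran from 0.86 to 1.47 in TMAO+IR and from 1.06 to 9.0 in IR, with a median of 1.27. With counts divided by the longest annotated transcript, Tlr9 stood above Aim2 in 6 of 6 libraries, by 2.03 to 2.45 times in TMAO+IR and 1.77 to 11.4 times in IR, with a median of 2.25. The order of this neighbouring pair therefore depends on the length used for Aim2 in TMAO+IR replicate 3, the library in which Aim2 was higher by FPKM. Among the 149 genes, Ifi204 ranked 51 by mean FPKM.

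Aim2 and Ifi204 belong to 1 cluster of related genes. The annotation places 13 Ifi200 family genes within 681 kb of chromosome 1, and 4 of them, Aim2, Ifi213, Ifi204 and Ifi203, are among the listed genes and higher in TMAO+IR. The other 9 were not analysed here. The roles of Ifi203 and Ifi213 are less defined than those of Aim2 and Ifi204. Ifi203 had 14.6, 15.6 and 8.98 FPKM in TMAO+IR libraries 1 to 3, against 5.55, 6.94 and 5.32 FPKM in IR libraries 1 to 3. TMAO+IR replicate 3 was thus the lowest of its group for Ifi203, as for Ifi204. The same held for all listed genes together, which took 0.678% of fragments there, against 0.944% and 1.08% in TMAO+IR replicates 1 and 2. Nearly all of Ifi203 overlaps the annotated span of Mndal on the same strand, so its count is uncertain. Ifi213 had 0.56, 0.61 and 0.55 FPKM in TMAO+IR libraries 1 to 3, against 0.16, 0.10 and 0.15 FPKM in IR libraries 1 to 3, on counts of 25, 36 and 25 against 9, 6 and 9. Its log2 fold change was 1.92 ± 0.43 and that of Ifi203 1.12 ± 0.39 (SE, edgeR). Ackr1, a chemokine-binding receptor of venular endothelium that lies 17.1 kb before Aim2 and is no family member, was listed as well, with a log2 fold change of 1.35 ± 0.35 (SE, edgeR).

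**Figure D4:**
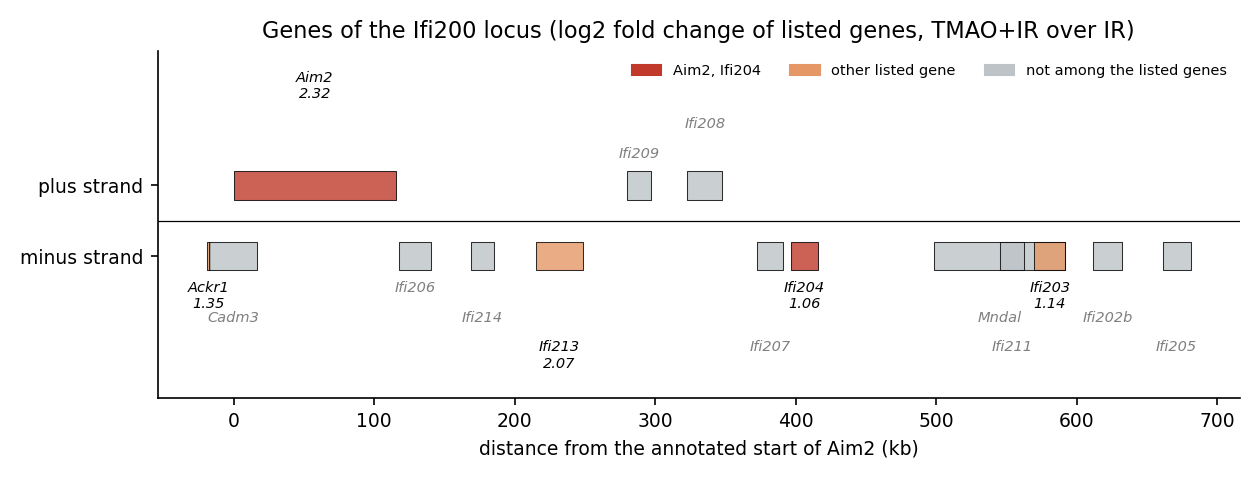
Genes of the Ifi200 locus on chromosome 1 by distance from the annotated start of Aim2 in kb, plus strand above and minus strand below. The log2 fold change from the authors' deposited table is printed for the listed genes: 1.35 for Ackr1, 2.32 for Aim2, 2.07 for Ifi213, 1.06 for Ifi204 and 1.14 for Ifi203.

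The start of Ifi213 and 1 RefSeq start of Ifi203 carry the same ISRE match, the element through which type I interferon acts on its target genes. The regions chr1:173599296-173599385 and chr1:173942493-173942567 (both minus strand, RefSeq, GRCm38.p6) are shown with the match in capitals.
Ifi213: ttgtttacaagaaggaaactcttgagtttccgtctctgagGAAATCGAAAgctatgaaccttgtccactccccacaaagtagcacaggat
Ifi203: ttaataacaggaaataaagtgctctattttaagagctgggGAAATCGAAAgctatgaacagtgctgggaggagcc
The match lies 73 to 64 bases before the start of Ifi213 and 35 to 26 bases before a start of Ifi203. That start of Ifi203 lies beside the annotated start of Mndal on the same strand (173942491). Another RefSeq window of Ifi203, chr1:173942623-173942922, holds the annotated start of the gene (173942672) and had no ISRE match. Of the 14 RefSeq windows of 12 Ifi200 family genes, 10 had an ISRE match on either strand, beside 3.44% of all 32851 windows and 12 of 139 windows of listed genes. The 10 belong to 9 of the 12 genes. Aim2 had none, and Ifi204, which had no RefSeq window, is not among the 12. Windows of neighbouring family genes can resemble each other through duplication, so these genes are not independent.

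Of 156 different gene symbols in 9 lists of sensing and interferon pathways, 14 (8.97%) were among the 149 genes, including the 3 sensors. Beside this, 1.17% of all genes that the deposited p-values imply were tested were listed. Some genes stand in the lists under an old and a new symbol (Cgas and Mb21d1, Sting1 and Tmem173, Ddx58 and Rigi). The number of different genes is therefore below 156. All 14 were higher, as were 81.9% of the 149 genes. The lists were chosen with earlier results of these data known, so these shares are a description only. Aim2 was the only listed gene of 16 inflammasome genes, and Tlr9 the only one of 24 genes of endosomal Toll-like receptor signalling. Aim2 and Ifi204 were the only listed ones of 16 symbols of cytosolic DNA sensing and STING signalling. The lists of 11 cell surface Toll-like receptor genes and 9 nuclease genes had no listed gene. A gene outside the table may have missed a limit or not been analysed, so its absence does not show an equal level. Among the RNA sensing genes Ifit1, which binds foreign RNA ends, had 9.03, 6.73 and 5.66 FPKM in TMAO+IR libraries 1 to 3, against 3.46, 3.54 and 3.53 FPKM in IR libraries 1 to 3. Among the interferon receptor genes Jak2, a kinase used by the interferon-γ receptor, had 19.8, 20.9 and 13.1 FPKM in TMAO+IR libraries 1 to 3, against 9.07, 10.5 and 5.82 FPKM in IR libraries 1 to 3. Both genes were higher in each TMAO+IR library than in any IR library, as were 80.5% of the listed genes by depth-scaled counts. Of 39 interferon-induced genes 8 (20.5%) were listed, beside the 1.17% of all genes tested. All 8 were higher, as were 122 of the 149 genes, with a median log2 fold change of 1.14, beside 1.17 over all 149 genes, in the authors' deposited table. They were Ifit1, the immunity-related GTPase gene Iigp1, Trim30a, Trim30b, Trim30d, Slfn1, Slfn4 and Slfn8, with log2 fold changes between 1.01 (Slfn8) and 1.46 (Slfn4) in the authors' deposited table. Most genes of that list were not listed, among them Isg15, Mx1, Mx2, Rsad2, Ifit2, Ifit3, Usp18, Cxcl9, Cxcl10, Oasl1, Oasl2, Irgm1, Gbp2 and Bst2.

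The pathway annotation in the authors' deposited table places Aim2 in the cytosolic DNA-sensing pathway, Aim2 and Ifi204 in NOD-like receptor signalling and Tlr9 in Toll-like receptor signalling. In all, 10 listed genes carry at least 1 of these 3 labels. All of these were higher, with a median log2 fold change of 1.16, beside 1.17 over all 149 genes, in the authors' deposited table. The 7 besides the sensors were the cytokine genes Il6 and Il33, the AP-1 subunit genes Fos and Jun, the chaperone gene Hsp90aa1, the NADPH oxidase gene Cybb and the T cell costimulator gene Cd80. Cd80 had 2.0, 1.86 and 2.05 FPKM in TMAO+IR libraries 1 to 3, against 0.43, 1.28 and 1.17 FPKM in IR libraries 1 to 3. Its groups did not overlap either, as in 97.3% of the listed genes by depth-scaled counts. Activation of innate immune response was the most specific gene ontology term that all 3 sensors share in the table, and 5 listed genes carry it.

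Aim2, Ifi204 and Tlr9 are known to be expressed in leukocytes. Of 61 cell type markers examined, 5 were listed, and 4 of these were leukocyte markers. Most of the 61 were leukocyte markers: 10 of monocytes and macrophages, 10 of neutrophils, 8 of dendritic cells, 5 of B cells and 6 of T and NK cells. All 5 were higher in TMAO+IR, in a table where 81.9% of the genes were higher. The marker lists were chosen with earlier results of these data known, so the shares below are a description only. Of 10 monocyte and macrophage markers 2 (20%, beside 1.17% of all genes tested) were listed, Ccr2 and Chil3. Their summed level was 2.77 to 6.11 FPKM in TMAO+IR and 1.06 to 1.83 FPKM in IR. Adgre1, Csf1r, Cd68, C1qa, Mrc1, Lyz2, Ly6c2 and Cx3cr1 of that list were not listed. Of 10 neutrophil markers 2 (20%) were listed, Mmp8 and Slfn4. Their summed level was 12.2 to 14.6 FPKM in TMAO+IR and 4.4 to 8.06 FPKM in IR. Slfn4 is also 1 of the 8 listed interferon-induced genes. S100a8, S100a9, Ly6g, Retnlg, Csf3r, Cxcr2, Mmp9 and Camp of the same list were not listed. Of 7 endothelial markers 1 (14.3%) was listed, Ackr1, at 1.83 to 2.58 FPKM in TMAO+IR and 0.80 to 0.88 FPKM in IR. The defining markers of 5 other cell types, dendritic, B, T and NK cells among them, had no listed gene, and none of the 5 listed markers was at 0. In whole tissue, fewer cells of a type and less RNA per cell cannot be told apart, and the part of these cells in the sensor levels was not tested.

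Within the groups the sensors did not vary together in any stable way. Deviations of log2 counts from the group mean had a Pearson r of 0.13 for Aim2 and Ifi204, 0.21 for Aim2 and Tlr9 and -0.31 for Ifi204 and Tlr9 over the 6 libraries. Leaving out 1 library moved each of these widely, and the first became 0.89 without IR replicate 3, the second 0.97 without IR replicate 2 and -0.47 without IR replicate 3, and the third 0.54 without IR replicate 1. The listed genes whose deviations were most like those of Aim2 were Iigp1 (r = 0.98), Cd274 and Ptgs2 (0.97 each), Atp8b1 and Gvin1. For Ifi204 they were Ugdh (0.98), Fosl1 and Edn1 (0.95 each), Ch25h and Tchh, and for Tlr9 Eno1b (0.96), Atp8b4 (0.82), Samd9l, Cybb and Trim30d. All genes share the size estimate of each library, and the group means were subtracted. With 6 libraries and 148 genes to choose from, high values of r are a description only.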

How the data were processed

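The authors deposited 1 table of 149 genes with unnormalized read counts for each library, FPKM values per library printed to 2 decimals, group means, a log2 fold change of those means, and a p-value with its FDR. Per the submitters' processing notes, the build was GRCm38 and the tools were edgeR, DESeq2, StringTie 1.3.1, HISAT2, Bowtie2 2.2.8 and fastp 0.18.0, with no role given. The labels do not say which of them gave the deposited p-values. Groups and replicate numbers come from the sample titles, and T-IR columns were matched to TMAO+IR. Library sizes were recovered from the count to FPKM ratio of 86 genes at or above 1 FPKM throughout, scaled by 12 genes with a single annotated transcript. Counts of all 149 genes were fitted with edgeR 4.0.16 (quasi-likelihood, R 4.3.3) with these sizes and no filter. The fit was run on simulated counts in which most genes were unchanged, unlike the listed genes, so that run cannot show how selection affects it. Since the table was selected on the contrast, only log2 fold changes and SE (log2 fold change over the root of F) are given. All 149 IDs matched GENCODE M21 (GRCm38). RefSeq windows matched 109 listed genes. Members, gene lists and motifs were chosen with earlier results of these data known. Besides the sensors, the genes named are the listed ones in the lists, the pathway labels or the Ifi200 locus, and the 5 whose within-group deviations were most like each sensor. Depth sets the precision, and intervals cover counting error only. Alternatives were other scalings, DESeq2 1.42.0, limma 3.58.1 on log2(FPKM + 0.1) or log2(FPKM + 1), a minimum mean count of 50, a replicate block and leaving out each library.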

Additional observations from a re-analysis of the deposited data

How the results depend on the processing

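The log2 fold changes kept their direction in every alternative, except for Ifi204 under scalings that centre the listed genes. TMM scaling within the list shifted the median of all listed genes by -1.01 and gave 0.90 for Aim2, 0.064 for Tlr9 and -0.014 for Ifi204. DESeq2 size factors within the list shifted it by -1.06 and gave 0.89, 0.012 and -0.068 in the same order. Both centre a list chosen for its change. With log2(FPKM + 1), whose pseudocount shrinks low genes, limma gave 0.67 for Aim2 and 0.43 for Tlr9. Leaving out 1 library gave 1.43 to 2.49 for Aim2, 0.96 to 1.39 for Tlr9 and 0.91 to 1.25 for Ifi204. With a minimum mean count of 50, 117 genes remained, without Aim2 and Tlr9. The replicate block gave 1.94 for Aim2, 1.13 for Tlr9 and 1.04 for Ifi204. The labels name no pairs, and the deviations of same-numbered libraries correlated at -0.32, 0.33 and -0.076. The within-group r ranged, with 1 library left out, from -0.15 to 0.89 for Aim2 and Ifi204, -0.47 to 0.97 for Aim2 and Tlr9 and -0.76 to 0.54 for Ifi204 and Tlr9. From log2(FPKM + 0.1) the r of Aim2 and Ifi204 was -0.083. With 1 library left out, an alternative chosen after the data were seen, the median level ratio was 11.5 to 12.8 for Ifi204 over Tlr9 and 1.06 to 1.47 for Tlr9 over Aim2. Depth limits Aim2 most, with 2 to 27 reads per library.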
